A study of Mus musculus with 5 samples.

Results

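The 9 genes Krt5, Krt6a, Krt7, Krt8, Krt14, Krt15, Krt17, Krt18 and Krt19 are the keratins that mark the luminal and basal layers of the mammary gland, together with Krt6a, a keratin of stressed and wounded epithelium. They were taken by symbol and make up 9 of the 31053 genes measured and 9 of 53 genes whose symbol is Krt and a number. They were measured in epithelial cells of mammary tumors from MMTV-PyMT mice, bred as the strain FVB/N-Tg (MMTV-PyVT)634Mul/J. Every tumor of both groups carried this transgene, which expresses polyoma middle T in mammary epithelium from a viral promoter. From 7 weeks of age the mice received either B20-4.1.1, an antibody against VEGF-A, or an isotype-matched mouse IgG2a (clone C1.18.4) that does not block it, each at 5 mg/kg into the peritoneum on 2 occasions a week for 6 weeks. Viable cells from 15 tumors, which the labels assign to 15 different mice, were profiled by droplet single-cell RNA sequencing in 5 pools of 3 tumors. The isotype group had 6 tumors (numbers 1 to 3 in pool 1 and 4 to 6 in pool 2), and the B20-4.1.1 group had 9 (numbers 1 to 3, 4 to 6 and 7 to 9 in pools 1, 2 and 3). No pool mixed the treatments, and the effect of a pool and that of the antibody cannot be told apart by a fixed term in a model. The comparison asks how the luminal and basal keratin transcripts of the tumor epithelium differed after the blockade of VEGF-A.

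Keratins are the intermediate filaments of epithelial cells. Each filament is built from pairs of a type I and a type II keratin, such as Krt18 with Krt8 in simple and luminal epithelium, or Krt14 with Krt5 in basal and myoepithelial cells. In the normal mammary gland Krt8, Krt18, Krt19 and Krt7 mark the luminal layer, Krt5, Krt14, Krt15 and Krt17 mark the basal layer and parts of the ductal epithelium, and Krt6a and Krt17 are induced in wounded or stressed epithelium. Of the members, Krt5, Krt6a, Krt7 and Krt8 are type II keratins and Krt14, Krt15, Krt17, Krt18 and Krt19 are type I.

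The genes lie in 2 clusters of the mouse genome (GENCODE positions on GRCm38). Krt7 (chr15:101411043-101430313, plus strand), Krt6a (chr15:101689910-101694307, minus), Krt5 (chr15:101707070-101712898, minus) and Krt8 (chr15:101996698-102004482, minus) lie on chromosome 15. Krt18 (chr15:102028180-102032027, plus) lies beside Krt8 and is the exception among the type I keratins, whose other members are on chromosome 11. These are Krt15 (chr11:100131758-100135928), Krt19 (chr11:100140810-100148665), Krt14 (chr11:100203162-100207548) and Krt17 (chr11:100256217-100261029), all on the minus strand. Promoter windows of 250 bases before to 50 bases after a transcript start were at hand for 5 of the 9 genes (RefSeq, GRCm38.p6). The 3 luminal members with a window, whose levels are compared between the treatments below, are shown so that they can be set side by side, from 5′ to 3′ on each gene's own strand.
Krt8 (chr15:102004293-102004592, minus strand): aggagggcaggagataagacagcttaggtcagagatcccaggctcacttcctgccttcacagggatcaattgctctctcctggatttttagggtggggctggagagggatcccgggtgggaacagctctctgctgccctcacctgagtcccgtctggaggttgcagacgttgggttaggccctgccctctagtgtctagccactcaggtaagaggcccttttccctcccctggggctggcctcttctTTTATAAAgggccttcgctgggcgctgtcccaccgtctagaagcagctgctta
Krt18 (chr15:102027966-102028265, plus strand): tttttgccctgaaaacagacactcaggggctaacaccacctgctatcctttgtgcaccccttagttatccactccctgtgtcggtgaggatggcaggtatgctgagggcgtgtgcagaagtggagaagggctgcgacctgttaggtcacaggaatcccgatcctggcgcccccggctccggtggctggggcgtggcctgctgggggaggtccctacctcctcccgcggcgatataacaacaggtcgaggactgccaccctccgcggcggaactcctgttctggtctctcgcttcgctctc
Krt7 (chr15:101412153-101412452, plus strand): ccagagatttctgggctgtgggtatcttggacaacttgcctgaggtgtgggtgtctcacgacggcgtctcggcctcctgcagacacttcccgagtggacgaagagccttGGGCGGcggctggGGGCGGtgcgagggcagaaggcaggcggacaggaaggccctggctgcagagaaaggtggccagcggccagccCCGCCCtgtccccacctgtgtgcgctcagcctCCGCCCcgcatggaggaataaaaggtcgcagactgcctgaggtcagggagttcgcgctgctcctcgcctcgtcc
Capitals mark every match, on either strand, to 4 short motifs. They were TATAAA, known as the TATA box of many promoters, and GGGCGG, the box bound by Sp factors. The others were the site of AP-1 factors, written TGANTCA, and the core that hypoxia-inducible factors bind, written ACGTG. The Krt8 window held TATAAA at 2 overlapping places, 1 on each strand. The Krt7 window held GGGCGG 4 times, and the Krt18 window held none of the 4 motifs. The Krt7 window lies wholly inside the gene span given above. The transcript starts of the Krt8 and Krt18 windows also lie inside their gene spans. None of these starts is therefore the first one annotated for its gene. Over 32851 mouse promoter windows of the same length, 13.6% held TATAAA, 35.7% GGGCGG, 7.81% TGANTCA and 19.6% ACGTG. These matches describe letters in a window and say nothing about binding in these tumors.

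The tumors gave 30340 deposited cells, of which 19533 had at least 2500 unique molecular identifiers (UMIs, each standing for 1 captured transcript molecule), no more than the study's multiplet limit, and at most 20% mitochondrial UMIs. Epithelial cells, taken as those with at least 1 Epcam UMI and none of the leukocyte gene Ptprc, numbered 8203 in the isotype group and 5393 in the B20-4.1.1 group, with 85 to 1949 per tumor and a median of 7386.5 to 11774 UMIs per cell. Those with fewest were B20-4.1.1 tumors 4 (85 cells) and 6 (171 cells). The median mitochondrial share of epithelial cells was 5.91% to 6.07% in isotype pool 1, 3.13% to 3.64% in isotype pool 2 and 2.49% to 2.96% in the B20-4.1.1 tumors, so it did not overlap between the groups. Its part in the differences below was not tested beyond leaving out each pool. Cell barcodes shared between tumors numbered 0 within pools and 94 over 90 pairs of tumors from different pools. After every cell had been thinned to 2500 UMIs, Cdh1 was found in 25.6% to 37.2% of the gated cells of each tumor. The claudin genes Cldn3, Cldn7 and Cldn4 were found in a mean of 77.8%, 66.5% and 9.74% of isotype and 82.6%, 71.1% and 15.1% of B20-4.1.1 cells. The 4 epithelial markers Cdh1, Cldn3, Cldn4 and Cldn7 summed to 14.5 to 17.1 UMIs per 10000 in isotype and 17.5 to 24.0 in B20-4.1.1 tumors, without overlap, so they moved with the keratins below, and their part in those differences was not tested. Markers of T cells (6 genes, none at 0 in every tumor) summed to 0.0479 to 0.134 UMIs per 10000 in the gated cells of isotype tumors and 0.0827 to 1.63 in those of B20-4.1.1 tumors. Markers of macrophages (5 genes, none at 0 in every tumor) summed to 0.209 to 0.693 and 0.106 to 0.938. Those of neutrophils (3 genes) summed to 0.673 to 2.53 and 0.799 to 3.73, and those of fibroblasts (6 genes) to 0.0362 to 1.26 and 0.0213 to 2.30. B cell markers (3 genes) reached at most 0.00594 and 0.256, and endothelial markers (4 genes) at most 0.124 and 0.0570.

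Luminal keratins dominated the keratin transcripts of these tumors, and the basal member Krt5 was nearly absent. In UMIs per 10000 epithelial UMIs, over all 15 tumors, the mean level was 18.1 ± 5.11 (SD) for Krt18, 12.8 ± 3.13 for Krt8, 6.37 ± 3.46 for Krt19, 1.82 ± 0.758 for Krt7 and 0.644 ± 0.341 for Krt14. The level of Krt17 was 0.262 ± 0.262, that of Krt6a 0.0325 ± 0.0631, that of Krt15 0.0135 ± 0.00857 and that of Krt5 0.00266 ± 0.00422. UMIs count 3′ ends, 1 per molecule, so these levels are not scaled by transcript length, although capture can differ between genes. The ranges over tumors overlapped for each pair of neighbours in this order. Within tumors the order was steadier, with Krt18 above Krt8, Krt8 above Krt19, Krt19 above Krt7 and Krt7 above Krt14 in 15 of 15 tumors, and Krt14 above Krt17 in 14. Krt6a lay above Krt15 in 6 of 15 tumors.

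Krt5 gave 41 UMIs in all 13596 epithelial cells, 19 of them in the isotype and 22 in the B20-4.1.1 group, and 8 of 15 tumors had none. After thinning, 10 tumors had no Krt5-positive cell, which allows a share of up to 0.154% in the tumor with most cells among them and 3.53% in the one with fewest (3 counts, counting error only). This limits cells with a Krt5 UMI at that depth, not cells that express the gene. Krt14, the usual partner of Krt5, gave 7397 UMIs, so Krt14 transcripts were found in these tumors almost without Krt5.

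Keratin transcripts outside the epithelial gate were few. In T cells (Ptprc and Cd3e at least 1 UMI, Epcam 0; 14 tumors with at least 20 such cells), the mean levels of Krt8, Krt18, Krt19, Krt7, Krt14 and Krt17 were 1.76% to 2.74% of those in epithelial cells. Thinned to the same number of UMIs, 8.25% ± 2.90 of T cells had a Krt8 UMI and 10.9% ± 3.98 a Krt18 UMI (SD, n = 14), against 79.9% and 89.6% of epithelial cells. For Krt14 the shares were 0.376% of T cells and 8.17% of epithelial cells, and for Krt17 0.230% and 1.76%. Before thinning, T cells had a median of 4082.5 and epithelial cells 8612 UMIs. Macrophages (14 tumors) had 1.89% to 2.83% of the epithelial level of the same 6 keratins. No tumor had 20 fibroblasts or endothelial cells by the fixed gates, which held 35 and 36 cells in all.

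All 8 keratins with enough UMIs to be tested had a higher fitted level in B20-4.1.1 than in isotype tumors, and 7 of the 8 passed the test, with none lower. The test was edgeR's quasi-likelihood F test on UMIs summed over the epithelial cells of each tumor, with Benjamini-Hochberg adjustment over all 12323 genes tested, of which 7.34% were called higher. Krt5 was too low to be tested. The median log2 fold change was 1.08 over the 8 keratins and -0.01 over all genes tested. All values are shares of the RNA captured, so a higher share and less of other RNA in a cell cannot be told apart.

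**Figure D1:**
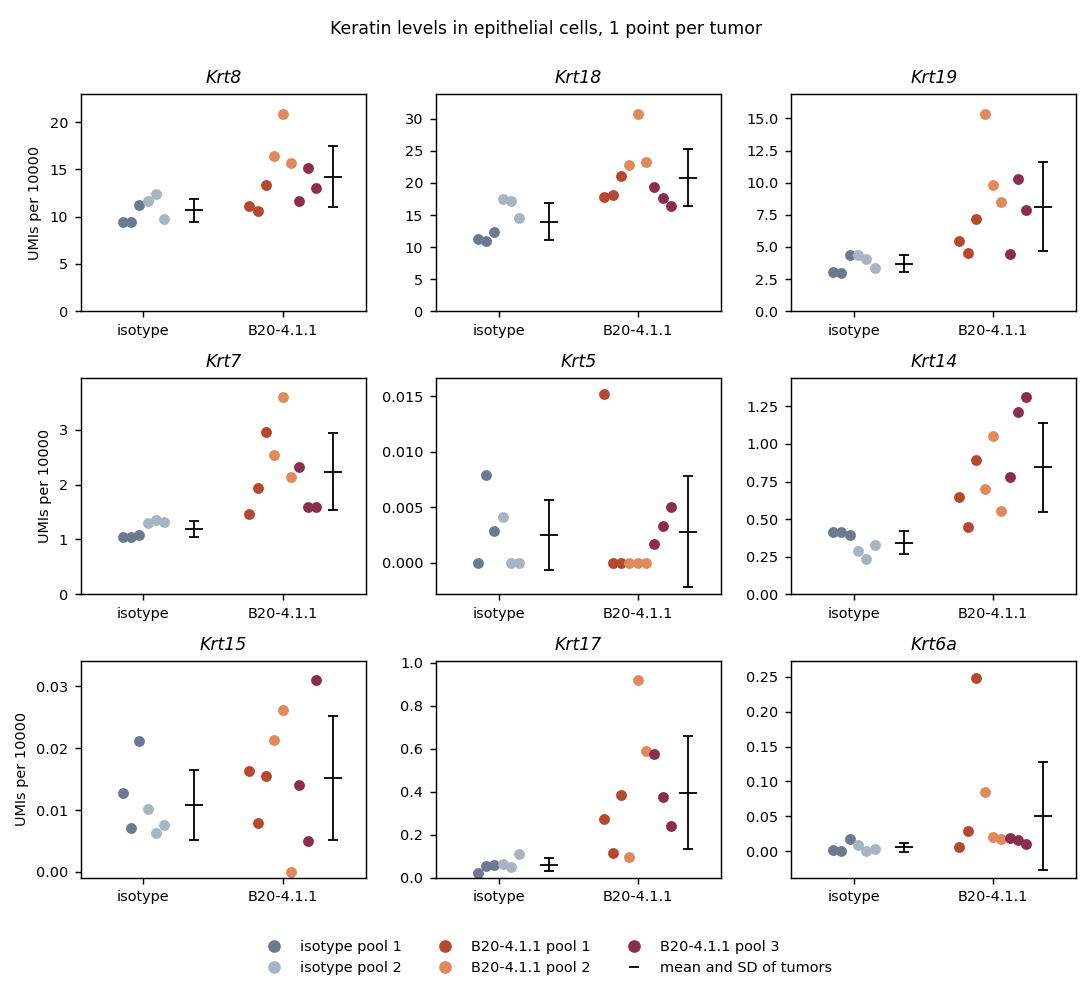
Level of each keratin in UMIs per 10000 epithelial UMIs (vertical axis, own scale per panel) in the 6 isotype and 9 B20-4.1.1 tumors, 1 point per tumor, colored by pool, with the mean and SD of each group beside the points. For Krt19, Krt7 and Krt14 every B20-4.1.1 tumor lies above every isotype tumor, whereas the near-absent Krt5 and Krt15 overlap between groups.

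Among the luminal keratins, Krt19 and Krt7 separated the groups. Krt19, a small type I keratin without a tail domain, ranged from 2.96 to 4.40 UMIs per 10000 in isotype tumors (median 3.73) and from 4.42 to 15.3 in B20-4.1.1 tumors (median 7.84). The groups did not overlap, although the lowest B20-4.1.1 tumor lay just above the highest isotype tumor, and tumor 4, with 85 cells, was the highest. The fitted log2 fold change was 1.19 (SE 0.241, adjusted p = 0.00630 by edgeR, higher in 9 of 9 tumors than the isotype mean).

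Krt7, the type II keratin of ductal and glandular epithelium, ranged from 1.04 to 1.35 (median 1.19) and from 1.47 to 3.59 (median 2.14) UMIs per 10000. The groups did not overlap here either. Its log2 fold change was 0.97 (SE 0.188, adjusted p = 0.00432, edgeR). Together with Krt14 below, 3 of the 8 tested keratins had every B20-4.1.1 tumor above every isotype tumor, which held for 1.45% of all genes tested.

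The abundant pair Krt8 and Krt18 differed less. Krt18 ranged from 11.0 to 17.5 (median 13.4) in isotype and from 16.4 to 30.8 (median 19.4) in B20-4.1.1 tumors, with 8 of 9 B20-4.1.1 tumors above the highest isotype tumor. Its log2 fold change was 0.63 (SE 0.161, adjusted p = 0.0167, edgeR). Krt8 ranged from 9.45 to 12.4 (median 10.5) and from 10.5 to 20.8 (median 13.4), so the groups overlapped, with 6 of the 9 treated tumors higher than any isotype tumor. Its log2 fold change was 0.48 (SE 0.141, adjusted p = 0.0310, edgeR), the smallest among the members. For both genes the highest tumor was B20-4.1.1 tumor 5, and the pool with the highest mean was B20-4.1.1 pool 2 (17.6 for Krt8 and 25.6 for Krt18).

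Among the basal keratins, Krt14, the type I keratin of basal cells, ranged from 0.233 to 0.416 UMIs per 10000 in isotype tumors (median 0.359) and from 0.450 to 1.31 in B20-4.1.1 tumors (median 0.777), without overlap. Its log2 fold change was 1.40 (SE 0.216, adjusted p = 0.00150, edgeR). Within the isotype group Krt14 lay between 0.392 and 0.416 in pool 1 and between 0.233 and 0.326 in pool 2. Krt18 and Krt7 had the opposite order, with the 3 tumors of pool 1 (11.0 to 12.4 and 1.04 to 1.07) all below the 3 of pool 2 (14.5 to 17.5 and 1.30 to 1.35).

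Krt17, a type I keratin of basal cells and of stressed epithelium, ranged from 0.0191 to 0.110 (median 0.0570) in isotype and from 0.0958 to 0.919 (median 0.374) in B20-4.1.1 tumors. The ranges overlapped by a single B20-4.1.1 tumor, number 4, whose level rests on 9 UMIs. The log2 fold change was 2.77 (SE 0.506, adjusted p = 0.00470, edgeR). The last 400 bases of the Krt14 and Krt17 transcripts shared 6.27% of their 50-base words with each other or with Krt16. Whether reads were split among these genes was not tested. For Krt18 1.42% of such words occurred in a gene that is not a member. No such word of Krt8, Krt19, Krt7, Krt5, Krt15 or Krt6a occurred in another gene.

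Krt6a, the type II keratin induced in wounded epithelium, had 41 UMIs in the isotype group and 178 in the B20-4.1.1 group. Its level ranged from 0 to 0.0183 (median 0.00241) and from 0.00650 to 0.248 (median 0.0198) UMIs per 10000, with 80 of the 178 UMIs in B20-4.1.1 tumor 3. The log2 fold change was 3.01 (SE 0.951, adjusted p = 0.0477, edgeR), and without tumor 3 it was 1.92 (adjusted p = 0.0571). Krt15, a type I keratin of basal and progenitor cells, had 78 and 90 UMIs and overlapped widely, from 0.00622 to 0.0212 and from 0 to 0.0310. Its log2 fold change was 0.65 (SE 0.400, adjusted p = 0.274, edgeR), which did not pass the test.

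These calls depended on the pools. When isotype pool 1, the pool with the highest mitochondrial share, was left out, Krt14 alone of the 7 stayed past the threshold (log2 fold change 1.56, adjusted p = 0.0323, edgeR), whereas Krt19 had 0.99 (adjusted p = 0.148), Krt7 0.71 (0.144), Krt17 2.37 (0.0846), Krt18 0.31 (0.282) and Krt8 0.30 (0.358). In the 6589 of 13596 epithelial cells whose own oligonucleotides held at least 90% of the multiplexing UMIs, Krt17, Krt7 and Krt18 passed, whereas Krt14 had 0.91 (adjusted p = 0.111), Krt19 1.08 (0.0849) and Krt8 0.41 (0.114, all by edgeR). When tumors of a pool were instead treated as correlated (limma voom, estimated correlation of tumors in a pool 0.537) no keratin passed, with adjusted p = 0.118 for Krt14 and 0.146 to 0.663 for the others, and 42 of 12323 genes passed in all. Of the 8 keratins 6 had an unadjusted p under 0.05. The Krt8 call was also lost without isotype tumor 1, 2 or 3 or B20-4.1.1 tumor 5 or 6 (adjusted p up to 0.0858, edgeR), and without B20-4.1.1 pool 2 (0.132) or 3 (0.0640), and that of Krt18 without B20-4.1.1 pool 2 (0.0800). Krt6a kept its call in 2 of 15 fits without 1 tumor. No direction changed in any of these fits.

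**Figure D2:**
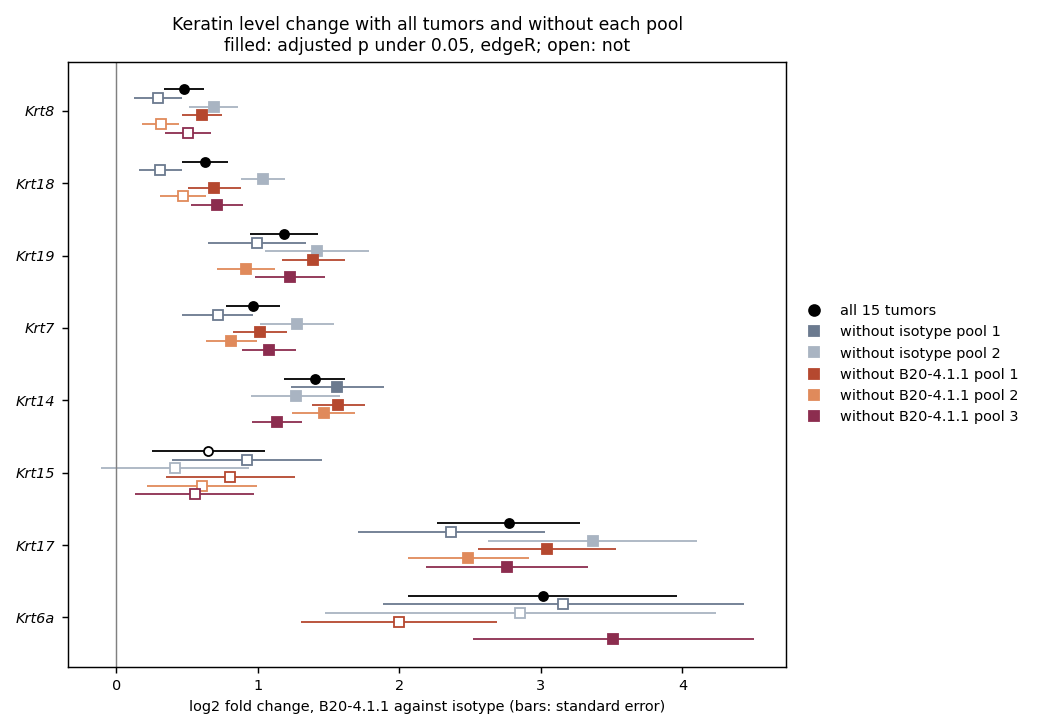
Fitted log2 fold change of each tested keratin, B20-4.1.1 against isotype (horizontal axis, bars are standard errors), with all 15 tumors and without each pool in turn, filled where the adjusted p is under 0.05. All points lie above 0, and without isotype pool 1 only Krt14 stays filled, at 1.56. Krt6a has no point without B20-4.1.1 pool 2, where it was too low to be tested.

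The share of cells in which a keratin was found was compared after thinning each cell to 2500 UMIs, so that depth could not set it. Krt19 was found in 29.1% to 32.3% of the epithelial cells of isotype tumors (median 30.5%) and 35.5% to 59.8% of those of B20-4.1.1 tumors (median 41.0%), and Krt14 in 4.06% to 5.74% (median 4.65%) and 6.01% to 15.8% (median 9.73%). Krt17 was found in 0.548% to 0.962% (median 0.596%) and 1.13% to 4.26% (median 2.35%). For these 3 keratins no B20-4.1.1 tumor overlapped an isotype tumor, which held for 0.536% of all genes tested. Krt7 was found in 17.2% to 22.8% (median 19.7%) and 21.0% to 35.2% (median 30.8%), with 8 of 9 B20-4.1.1 tumors above the highest isotype tumor.

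By an exact two-sided permutation test over all choices of 6 of the 15 tumors, 2 of the 8 tested keratins passed after adjustment over all genes, against 0.698% of all genes called higher. These were Krt14, with a mean of 4.72% ± 0.643 (SD, n = 6) against 10.5% ± 3.23 (n = 9), and Krt7, with 19.8% ± 1.93 against 28.5% ± 4.67 (both exact permutation adjusted p = 0.0497). Krt19 differed by 14.3 percentage points (adjusted p = 0.0574, exact permutation test) and Krt17 by 1.79 (adjusted p = 0.0627), both just outside the threshold. Without thinning, 9.89% of isotype and 20.6% of B20-4.1.1 cells had a Krt14 UMI, 42.0% and 55.6% a Krt7 UMI, and 48.8% and 62.0% a Krt19 UMI. The calls at 0.0497 are fragile, since with another random thinning Krt14 had an adjusted p of 0.0612 (exact permutation test) and no keratin passed. Without isotype pool 2 Krt7 alone passed (adjusted p = 0.0294, exact permutation test), and without any of the other 4 pools none did. The test also exchanges single tumors, although each pool held 1 treatment. With pool means in place of tumors, Krt14 and Krt7 each had p = 0.1 (adjusted p = 0.731, exact permutation test). That is the smallest p that 10 choices allow, so pool means cannot decide the question.

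**Figure D3:**
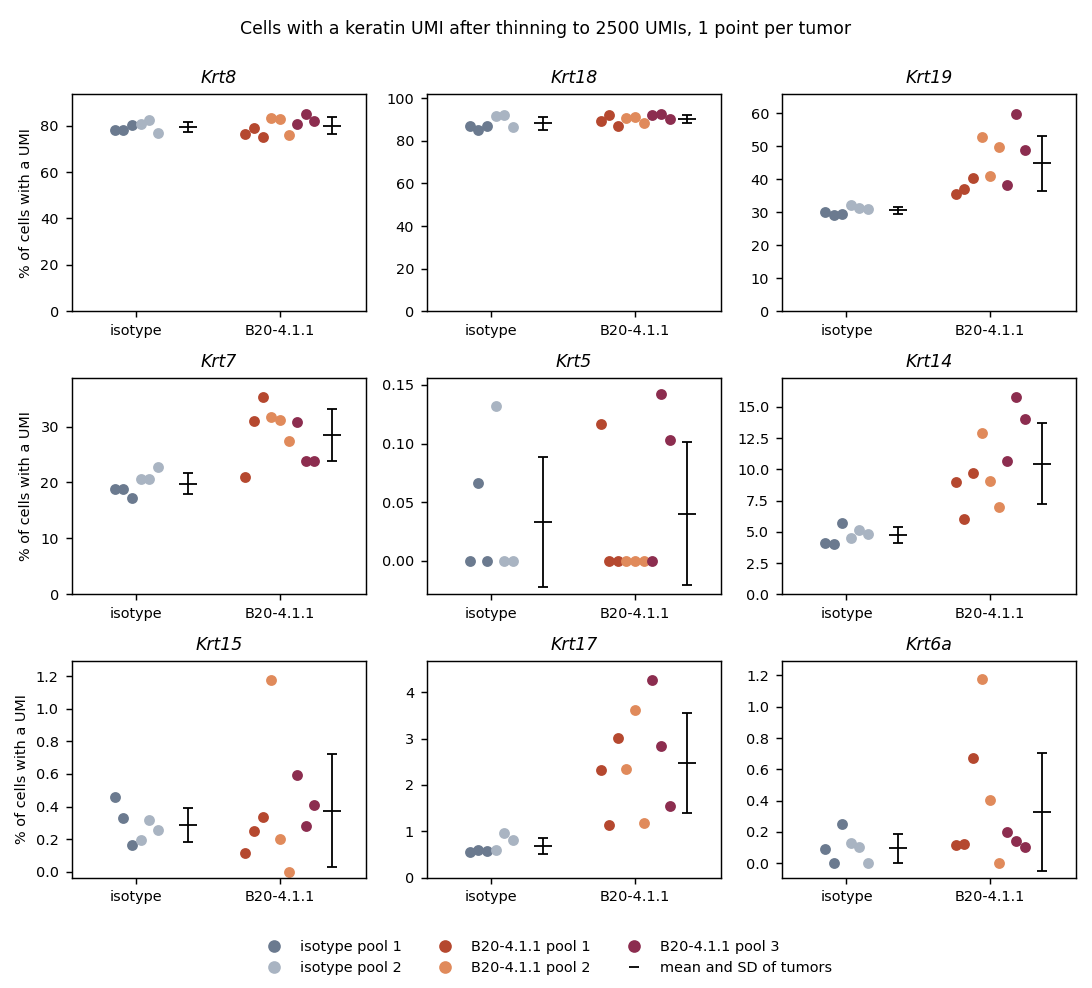
Share of epithelial cells with at least 1 UMI of each keratin after thinning to 2500 UMIs (vertical axis in percent, own scale per panel), 1 point per tumor, colored by pool, with mean and SD beside the points. Krt19, Krt14 and Krt17 separate the groups without overlap, whereas Krt8 and Krt18 are near 80% and 90% of cells in both.

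Krt8 and Krt18 were found in most cells of both groups, so their higher levels lay in the number of UMIs per cell. Krt8 was found in 79.5% ± 2.06 of isotype and 80.1% ± 3.65 of B20-4.1.1 cells, and Krt18 in 88.2% ± 2.94 and 90.5% ± 1.92 (SD, n = 6 and 9; exact permutation adjusted p = 0.882 and 0.330). Positive cells held a mean of 3.25 ± 0.247 and 4.23 ± 0.718 thinned Krt8 UMIs, and 3.95 ± 0.707 and 5.72 ± 0.959 thinned Krt18 UMIs. Cells with at least 5 thinned UMIs made up 14.4% and 21.4% for Krt8, 23.8% and 38.6% for Krt18, and 4.92% and 13.1% for Krt19, of which only Krt19 did not overlap between the groups (3.73% to 6.07% and 6.26% to 22.4%). These counts per cell are descriptions and were not tested. The share of all genes without overlap on this measure was not computed.

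Krt17 was carried by few cells. Of 13596 epithelial cells, 194 had a thinned Krt17 UMI (56 isotype and 138 B20-4.1.1), with a mean of 2.69 ± 1.23 UMIs per positive cell in isotype and 4.54 ± 2.20 in B20-4.1.1 tumors. It was exactly 1 in isotype tumor 1 and in B20-4.1.1 tumor 4. Krt14-positive cells numbered 962 and held 1.97 ± 0.417 and 2.39 ± 0.438 UMIs. Krt15 was found in 41 cells, Krt6a in 18 and Krt5 in 6, too few to describe by tumor.

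Basal keratins were found in the same cells as luminal keratins. A cell with a UMI of any of Krt8, Krt18, Krt19 or Krt7 together with any of Krt5, Krt14, Krt15, Krt17 or Krt6a made up 5.41% ± 0.672 of isotype epithelial cells (4.39% to 6.20%) and 12.3% ± 3.50 of B20-4.1.1 epithelial cells (7.01% to 17.5%), without overlap. This class largely restates the detection of Krt14, which had 962 positive cells against 194 for Krt17 and fewer for the others. It was not tested, and no share over all genes was computed for it. Cells with a luminal keratin alone made up 91.6% and 84.4%, and cells with none of the 9 made up 2.88% ± 0.657 and 3.20% ± 1.91. Cells with a basal keratin and no luminal one numbered 8 of 8203 in the isotype group and 6 of 5393 in the B20-4.1.1 group. Accordingly, 98.3% ± 1.57 and 99.4% ± 0.975 of cells with a basal keratin also had a luminal one. Nearly all epithelial cells had a luminal keratin, so independent detection would also give a high share.

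**Figure D4:**
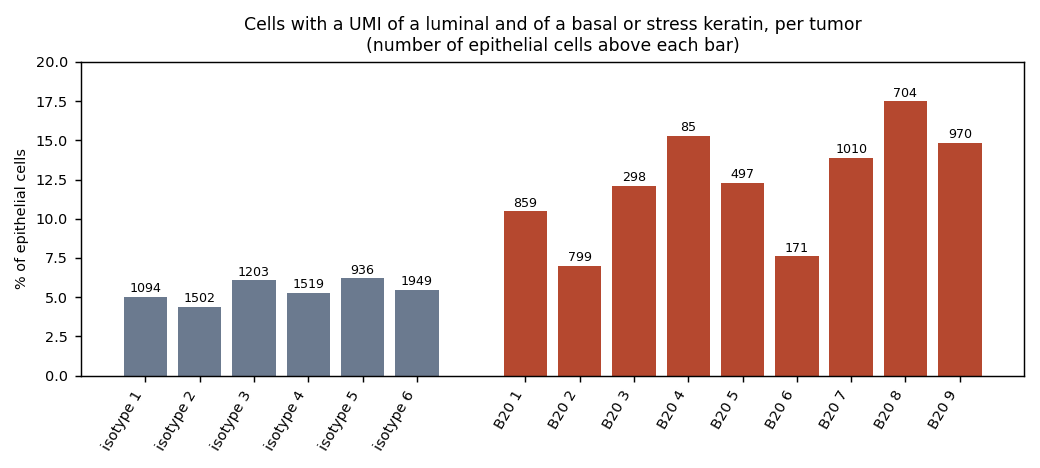
Share of epithelial cells with at least 1 thinned UMI of a luminal keratin and at least 1 of a basal or stress keratin (vertical axis in percent, from 0), 1 bar per tumor, with the number of epithelial cells above each bar. The isotype tumors lie between 4.39% and 6.20% and the B20-4.1.1 tumors between 7.01% and 17.5%, a difference that was not tested and largely restates that of Krt14. B20-4.1.1 tumors 4 and 6 rest on 85 and 171 cells.

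Within cells, the pairs were graded by the log2 odds ratio of finding both (0 where 2 genes are independent), computed per tumor with 0.5 added to each of the 4 cell counts. The highest among the 6 keratins found in over 1% of cells was Krt14 with Krt17, with a median of 2.91 over the 15 tumors (1.71 to 4.96, above 0 in 15 of 15). Tumors had 2 to 43 Krt17-positive cells, and where they were few the 0.5 added can by itself put this pair above 0. The median and the count of tumors above 0 for Krt14 with Krt17 are therefore partly set by it. Krt14 and Krt17 also share 50-base words near their 3′ ends, as given above, and the part of these was not tested. In all, 72 cells had both, against 17.7 if the 2 were independent within tumors, and these were 37.1% of the Krt17-positive and 7.48% of the Krt14-positive cells. Krt7 with Krt17 followed (median 2.65, 15 of 15 tumors above 0), with 130 cells against 49.9, so that 67.0% of Krt17-positive cells had a Krt7 UMI. The filament partners Krt8 and Krt18 had a median of 1.30 (0.53 to 2.96, 15 of 15 tumors), and 91.2% of Krt8-positive cells had a Krt18 UMI.

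Krt14 was found more often than independence gives with Krt19 (median 1.21, 562 cells against 378.9) and with Krt7 (median 1.08, 372 cells against 231.4), but hardly with Krt18 (median 0.13, above 0 in 11 of 15 tumors, 881 cells against 864.4). With Krt8 it had a median of 0.73 and was above 0 in 14 of 15 tumors. Krt17 with Krt18 had a median of -0.54 and was above 0 in 7 of 15 tumors, but 179 cells had both against 175.2 expected. That median is the value of B20-4.1.1 tumor 6, which had 2 Krt17-positive cells, so it gives no direction. Of the 18 cells with Krt6a, 15 had Krt7, 13 Krt19, 8 Krt14 and 4 Krt17. The odds ratios of Krt5, Krt15 and Krt6a are set mainly by the 0.5 added and are not interpreted. All these values describe cells that share a library, and cells with more keratin RNA of every kind raise each of them.

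**Figure D5:**
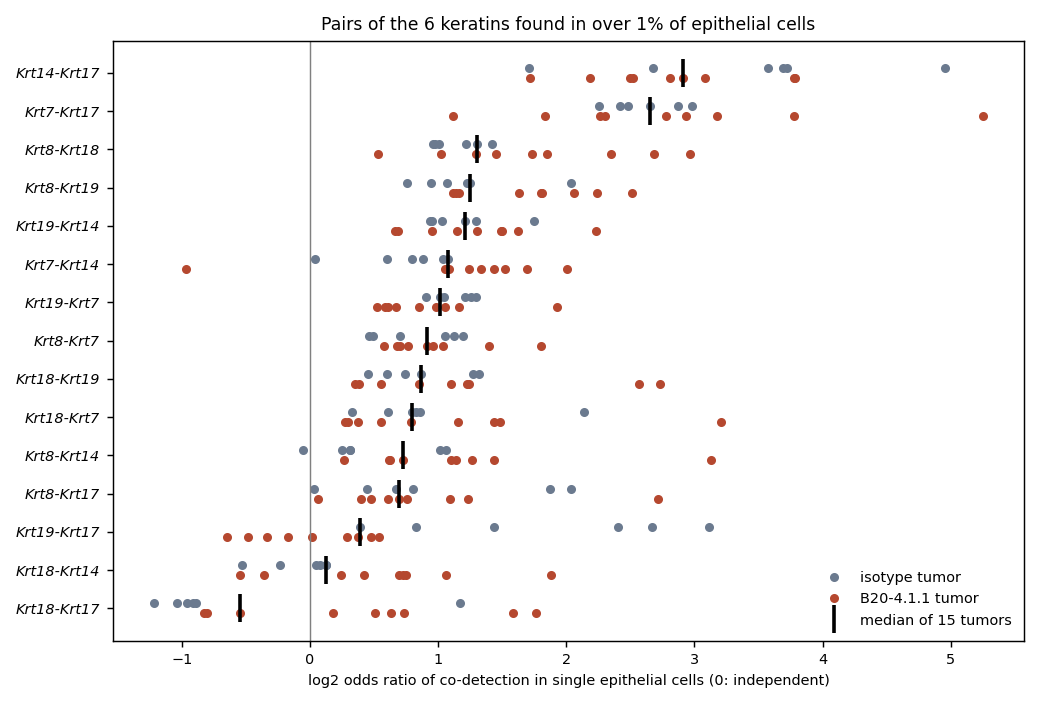
Log2 odds ratio of finding both keratins of a pair in the same epithelial cell (horizontal axis, 0 where independent), for the 15 pairs of the 6 more frequent keratins, 1 point per tumor by treatment, with the median of 15 tumors as a bar. Krt14 with Krt17 and Krt7 with Krt17 lie highest, at medians of 2.91 and 2.65. Krt14 and Krt17 share some 3′ sequence, whose part was not tested.

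Co-detection was not shown to differ between the treatments. Of the 36 keratin pairs, 0 passed the exact permutation test after adjustment over all partner genes, and 5 had an unadjusted p under 0.05. Of 110899 combinations of a keratin with a tested gene, 0% passed. The largest difference among the 6 frequent keratins was in Krt19 with Krt17, with a mean log2 odds ratio of 1.81 ± 1.09 in isotype and 0.01 ± 0.439 in B20-4.1.1 tumors (unadjusted p = 0.000599, adjusted p = 0.794, exact permutation test), where the isotype tumors had 6 to 16 Krt17-positive cells each. Krt8 with Krt18 had 1.15 ± 0.194 and 1.76 ± 0.792 (adjusted p = 0.933, exact permutation test).

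For each keratin, partner genes were ranked by the median log2 odds ratio over the tumors. The candidates were 5620 or 5621 genes detected in at least 5% of thinned epithelial cells. This order grades association, not the number of cells with both genes. For Krt8 and Krt18, which most cells express, the first were the ribosomal protein genes Rpl38 (median log2 odds ratio 2.20 with Krt8) and Rpl37a (2.07), Tpt1 (2.05 with Krt8 and 3.19 with Krt18), an abundant translation-related gene, and, with Krt18, Rpl13 and Rpl38 (both 2.89). Rpl38 with Krt8 was above 0 in 14 of 15 tumors, and Rpl13 with Krt18 in 13. Where a partner is found in nearly every cell, the value rests largely on the 0.5 added, so these values are not interpreted. For Krt19 the first were 2210407C18Rik (2.16), the calcium-binding protein gene S100a6 (1.88) and Dmkn (1.50), a secreted protein of stratified epithelium. For Krt7 they were the annexin gene Anxa3 (1.51), S100a6 (1.45) and the tight-junction gene Cldn4 (1.39). For Krt14 the first were the small heat-shock protein gene Cryab (1.91), Fxyd6 (1.82), a regulator of the sodium pump, and S100a6 (1.79), each above 0 in 15 of 15 tumors. Krt17 was most often found with the gap-junction gene Gja1 (3.30), Cldn4 (3.03) and Krt14 (2.91). With 2 to 43 Krt17-positive cells per tumor, these values also rest in part on the 0.5 added. By the same order Krt15 was found with Arhgef10l, Cdc14a and Sdccag3, and Krt6a with Ly6d, Pof1b and Krt14, in values that rest on the 0.5 added. Among the candidates, Krt18 ranked 18 and Krt19 ranked 19 for Krt8, Krt19 ranked 15 and Krt7 ranked 28 for Krt14, and Krt7 ranked 7 for Krt17.

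Transcripts of myoepithelial cells were rare in Krt14-positive and Krt14-negative cells alike. In the 13 tumors with at least 20 Krt14-positive cells, the smooth-muscle actin gene Acta2 was found in 0.113% of Krt14-positive and 0.0892% of Krt14-negative cells, and Trp63, a master regulator of basal cells, in 2.48% and 1.20%. Of 9 myoepithelial genes, 0 differed by an exact sign-flip permutation test over tumors, adjusted over 38 pairs of a keratin and a gene, and 0 had an unadjusted p under 0.05. The smallest adjusted p among them was 0.239, for Trp63, which was higher in Krt14-positive cells in 9 of 13 tumors. Without thinning, Trp63 was higher in Krt14-positive cells by 1.79 percentage points and passed (adjusted p = 0.0097, exact permutation test). Myh11, Cnn1 and Actg2, contractile genes of myoepithelium, were found in under 0.05% of either kind of cell, too few to compare.

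Of 10 luminal genes, 3 passed the test as found less often in Krt14-positive cells, of which 1 was frequent enough to be read. Gata3, a transcription factor of luminal cells, was found in 36.3% of Krt14-positive and 44.6% of Krt14-negative cells, a difference of -8.30 percentage points (SD 7.73, n = 13 tumors, adjusted p = 0.0139 by the exact permutation test), and was higher in Krt14-positive cells in 2 of 13 tumors. The other 2, Foxa1 and Pgr, genes of hormone-sensing luminal cells, were found in 0.432% and 0.524% of Krt14-negative cells. At such shares the Krt14-positive cells of 1 tumor would mostly hold none even without a difference, so no difference is read from them. Kit, a receptor of luminal progenitors, was found in 46.2% and 41.1% (adjusted p = 0.191), and Elf5, a regulator of the secretory lineage, in 41.6% and 43.5% (adjusted p = 0.516, exact permutation tests). Without isotype pool 1, none of the 3 passed, and without thinning the difference in Gata3 was -1.62 points (adjusted p = 0.553, exact permutation test).

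Between Krt8-positive and Krt8-negative cells, 5 of the 10 luminal genes passed as found more often in the former and 0 as less often, and 2 of the 5 were frequent enough to be read. Kit was found in 42.7% of Krt8-positive and 36.2% of Krt8-negative cells, higher in 14 of 14 tumors (difference 6.49 percentage points, SD 3.82, adjusted p = 0.00464, exact permutation test). Ehf, an epithelial transcription factor, was found in 66.8% and 62.6% (adjusted p = 0.0139, exact permutation test). The other 3, Foxa1, Pgr and Cited1, were found in under 1% of either kind of cell, and no difference is read from them. Of the myoepithelial genes 0 of 9 differed (1, Trp63, had an unadjusted p under 0.05, being found in 1.20% of Krt8-positive and 1.76% of Krt8-negative cells). Without isotype pool 1 Kit alone of the 5 passed. Krt5 had too few positive cells in every tumor for this comparison.

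Other genes of the keratin cytoskeleton were set beside the 9 members. Of 44 other keratin genes 5 were tested, and 1 rose in B20-4.1.1 tumors (median log2 fold change 0.47), where 7.34% of all genes tested were called higher and 6.91% lower. This was Krt80, a type II keratin linked to cell junctions, with 0.0140 to 0.0298 UMIs per 10000 in isotype and 0.0213 to 0.0948 in B20-4.1.1 tumors (log2 fold change 1.30, SE 0.249, adjusted p = 0.00359, edgeR). Krt10, Krt16, Krt23 and Krt79 did not pass, with log2 fold changes of 0.23, 1.90, 0.47 and 0.20. Of 11 tested genes of desmosomes, the junctions to which keratin filaments attach, 0 passed in either direction and 2 had an unadjusted p under 0.05 (edgeR, median 0.01), and among them Dsp had -0.37 and Jup 0.21.

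Of 7 tested genes of hemidesmosomes, which tie keratin filaments to the basement membrane, 1 rose and 1 fell (median -0.05), counts too small to be set apart from the shares of all genes. Cd151, a tetraspanin, rose by 0.44 on the log2 scale (SE 0.130, adjusted p = 0.0310, edgeR), and Lamb3, a laminin chain, had a log2 fold change of -0.39 (SE 0.112, adjusted p = 0.0284, edgeR). Without isotype pool 1, Cd151 had 0.17 and Lamb3 -0.20, and neither passed. Of 5 tested myoepithelial genes 0 passed and 2 had an unadjusted p under 0.05 (edgeR, median -0.63), and their 9 genes summed to 0.156 to 0.265 UMIs per 10000 in isotype and 0.0659 to 0.179 in B20-4.1.1 tumors, so the higher Krt14 and Krt17 did not come with higher sums of these genes.

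Of 10 luminal genes 1 rose (median 0.21), which is near the 7.34% of all genes. This was Elf3, an epithelial transcription factor, from 0.0632 to 0.122 in isotype to 0.108 to 0.222 UMIs per 10000 in B20-4.1.1 tumors (log2 fold change 0.88, SE 0.150, adjusted p = 0.00176, edgeR). Gata3 had -0.28 (adjusted p = 0.0643) and Kit -0.0049 (adjusted p = 0.987, edgeR). Of 5 tested squamous genes 2 rose (median 0.26). Sbsn, a secreted protein of stratified epithelium, had a log2 fold change of 0.89 (SE 0.239, adjusted p = 0.0234, edgeR). Sprr1a, a cornified-envelope precursor, was between 0.00104 and 0.00385 UMIs per 10000 in isotype and between 0.00650 and 2.57 in B20-4.1.1 tumors (log2 fold change 7.83, SE 1.71, adjusted p = 0.0118, edgeR). Without isotype pool 1 neither passed, with 0.49 (adjusted p = 0.307) for Sbsn and 7.70 (adjusted p = 0.144) for Sprr1a, both by edgeR. With tumors of a pool treated as correlated, Elf3 had an adjusted p of 0.156 and Krt80 0.118 by limma, and none of the genes named in these lists passed.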

How the data were processed

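Per the file headers, labels and methods, the authors dissociated tumors, sorted DAPI-negative cells, labelled each tumor with 4 multiplexing oligonucleotides, aligned reads to mm10 and deposited raw UMI counts per tumor (Cell Ranger 6.1.2; the submitters' processing notes also list Seurat 4.3.0 and bcl2fastq), with 31053 genes and 12 oligonucleotide features. The deposited counts carry no normalization. Depth was 4014509 to 23726246 UMIs per tumor.

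From these counts, cells with 2500 UMIs or more, up to the study's multiplet limit, and at most 20% mitochondrial UMIs were kept. Doublets were not called beyond the UMI maximum and the Ptprc limit. Levels were tested with edgeR 4.0.16 (TMM, filterByExpr, robust) in R 4.3.3, with DESeq2 1.42.0 and limma 3.58.1 as alternatives. Detection, co-detection and lineage genes used exact two-sided permutation tests in Python 3.11.15 (numpy 2.4.6, scipy 1.17.1), with Benjamini-Hochberg adjustment at 0.05. Intervals and limits cover counting error only. The steps across all genes were tested on simulated data. The members and gene lists were chosen with earlier results of these data known. Named genes were the 9 keratins and up to 3 called genes per list and direction with the smallest p. The 3 genes with the highest median log2 odds ratio of co-detection with each keratin were also named. Other members of the lists were named after their values were seen. The labels do not give the hypoxia class of the B20-4.1.1 tumors, which was not compared.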

Additional observations from a re-analysis of the deposited data

Results flagged for a closer look

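Of 36 groups of tumors (9 keratins, level and share of cells, 2 treatments), 4 had a tumor whose gap to its nearest neighbour was above Dixon's 95% critical value, where chance flags about 1 group in 20. All 4 were in the B20-4.1.1 group. Krt18 reached 30.8 UMIs per 10000 in B20-4.1.1 tumor 5, against 23.2 in the next tumor. Krt6a reached 0.248 UMIs per 10000 in tumor 3, against 0.0852 in the next. Krt5 reached 0.0152 UMIs per 10000 in tumor 1, from 14 UMIs, against 0.00497 in the next. Krt15 was found in 1.18% of the thinned cells of tumor 4, which is 1 of 85 cells, against 0.594% in the next.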

How the results depend on the processing

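No paired analysis was possible because the labels give no replicate numbers, and the pool numbers used here are in accession order. The number of keratins called higher in level was 7, 0 with the pool as a random block or with sums per pool, 3 with cells whose own oligonucleotides held at least 90% of multiplexing UMIs, 1 to 6 when 1 pool was left out, and 5 to 7 when 1 tumor was left out. All genes called numbered 1756, 42 with the pool block, 2 with sums per pool, 548 with the purity limit, 1119 with thinned cells, 400 to 5355 without 1 pool (400 without isotype pool 1, 5355 without isotype pool 2) and 796 to 2161 without 1 tumor. Of 264 repeats of the levels of the 8 tested keratins and of Krt80, 0 changed direction and 53 lost the call. Of these repeats 27 were of Krt15, which had no call to lose. Krt14 kept its call in 27 of 30 repeats, lost with the pool block, with sums per pool and with the purity limit (log2 fold change 0.91, adjusted p = 0.111 by edgeR), whereas Krt8 kept it in 19 and Krt6a in 6 of 28. Krt6a could not be tested with thinned cells or without B20-4.1.1 pool 2.

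In detection, 2 keratins and 297 genes were called. Without thinning, 1 keratin (Krt19, adjusted p = 0.0452, exact permutation test) and 152 genes were called, and with at least 2 UMIs 0 keratins and 52 genes. With the Cdh1 gate, the purity limit or pool means (10 choices, smallest p 0.1) both counts were 0, and with another thinning or Epcam at least 2 no keratin was called. Leaving out 1 pool gave 0 to 1 keratins and 0 to 2376 genes. The direction turned for Krt8 without thinning (-0.92 percentage points), with another thinning (-0.0908), with the purity limit (-1.78) and without B20-4.1.1 pool 3 (-0.71, in a range of -0.71 to 2.25 without 1 pool), for Krt18 without thinning (-0.45) and for Krt15 with the Cdh1 gate (-0.0666), none of them called. In co-detection, Krt18 with Krt14 was the 1 pair called, with at least 2 UMIs of both. The difference turned for Krt19 with Krt14 without thinning (-0.0265) and for Krt7 with Krt17 without thinning (-0.91), with at least 2 UMIs (-0.36), with the purity limit (-0.41) and without B20-4.1.1 pool 1 (-0.24, in a range of -0.24 to 0.51 without 1 pool). Luminal genes higher with Krt8 numbered 8 without thinning and 1 to 6 without 1 pool. Those lower with Krt14 numbered 1 with at least 2 UMIs and 0 to 3 without 1 pool. Myoepithelial genes that differed numbered 2 without thinning (Trp63 higher and Mylk lower in Krt14-positive cells), 1 with at least 2 UMIs and 0 to 1 without 1 pool. The cause of these changes was not tested.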

Other observations

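Cells with neither Epcam nor Ptprc UMIs, which enter no comparison, numbered 390 over the 15 tumors (7 to 68 per tumor). In these, Krt8 was found in 21.3% ± 15.2 of thinned cells per isotype tumor and 10.2% ± 12.7 per B20-4.1.1 tumor, and Krt18 in 18.3% ± 10.3 and 14.8% ± 3.69 (SD, n = 6 and 9). Krt5, Krt15 and Krt6a were found in none of them.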
